A study of Mus musculus with 8 samples.

Results

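The BCL2 family of apoptosis regulators was followed in cultured mouse macrophages as 10 genes chosen by symbol: the pro-survival genes Bcl2, Bcl2l1, Mcl1, Bcl2a1b and Bcl2a1d, and the pro-apoptotic genes Bcl2l11, Bid, Bad, Bax and Bak1. All 10 were found once each among the 55226 genes of the table, and all 10 were among the 11543 genes that passed a filter on low values, a mean of at least 3 over the 8 samples. RNA was sequenced from bone marrow-derived macrophages, cells grown from mouse bone marrow in the growth factor M-CSF. There were 4 groups of 2 samples each, all of strain C57BL/6: PTIP conditional knockout (cKO) cells given lipopolysaccharide (LPS), the endotoxin of Gram-negative bacteria, for 6 h at 100 ng/ml; cKO cells at 0 h; wildtype (WT) cells given the same LPS for 6 h; and WT cells at 0 h. PTIP, the protein of Paxip1, is named in the series title as a regulator of histone methylation. Neither what drives the conditional deletion nor the age of the mice is given in the sources used here. The series text calls the samples biological replicates, and the labels do not tie them to single mice, so a p-value sets a difference against the spread of these samples only.

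Proteins of this family decide whether the outer membrane of the mitochondrion is broken open during apoptosis. Bax and Bak1 encode the pore formers. Bcl2, Bcl-xL (Bcl2l1), Mcl-1 and A1 (the Bcl2a1 genes) bind and restrain them, and the BH3-only proteins, among them Bim (Bcl2l11), Bid and Bad, either neutralise the pro-survival proteins or activate the pore formers. In macrophages, A1 is a well-known target of the transcription factor NF-kB, which LPS activates, and Bim is a known driver of death in myeloid cells deprived of growth factor.

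Expression is given as rlog, a regularised log2 scale that draws a thinly read gene's samples together. Differences are given in log2 units with the standard error (SE) of limma's model over all 11543 genes, and a gene was called where its Benjamini-Hochberg adjusted p in that model was under 0.05. No read counts were used, so depth is unknown. Paxip1, a check of the labels, had an rlog of 2.54 and 2.63 in cKO cells after LPS, 2.54 and 2.48 in cKO cells at 0 h, 3.82 and 4.08 in WT cells after LPS, and 4.50 and 4.50 in WT cells at 0 h, and was lower in every cKO library, by -1.36 after LPS (SE 0.18, adjusted p = 0.0156) and -1.99 at 0 h (SE 0.18, adjusted p = 0.00686). The call at 0 h was lost with only the 4 samples at 0 h (adjusted p = 0.0544 with limma), without WT 0 h replicate 1 (adjusted p = 0.0732) and without cKO 0 h replicate 2 (adjusted p = 0.0625). The mean rlog of Paxip1, 3.39, lay close to the filter. The authors' deposited log2 fold changes for cKO against WT were larger, -4.75 at 0 h (adjusted p = 0.00196) and -4.04 after LPS. The difference after LPS had an unadjusted p of 0.0040 in the authors' deposited test and was not called there. Of 8 macrophage markers 8 passed the filter, with Lyz2 between 18.13 and 19.31, Cd68 between 14.42 and 14.83 and Csf1r between 12.75 and 13.44. Of the markers of other cells, 2 of 8 neutrophil, 3 of 6 dendritic cell, 1 of 5 B cell, 2 of 4 mast cell and none of the T cell, stromal or erythroid markers passed it. The neutrophil genes that passed were S100a8, between 6.50 and 8.35, and Camp, between 3.71 and 6.52, while Ly6g lay between -2.03 and -1.98. S100a8 was higher in every cKO sample (7.76 to 8.35) than in every WT sample (6.50 to 7.60). The T cell gene Cd3e lay between -2.17 and -2.12.

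Bcl2a1b and Bcl2a1d are near-identical copies of one another on chromosome 9 and had the largest LPS rises of the 10 members, so their start regions are shown here. Each is 300 bases, 250 before to 50 after the annotated start, 5′ to 3′ on the gene's strand, from RefSeq on GRCm38.p6. Bcl2a1b lies at chr9:89199023-89199322 on the plus strand and Bcl2a1d at chr9:88731801-88732100 on the minus strand. Capitals mark a match to TGANTCA, a loosened form of the AP-1 motif that allows any base in the middle.
Bcl2a1b: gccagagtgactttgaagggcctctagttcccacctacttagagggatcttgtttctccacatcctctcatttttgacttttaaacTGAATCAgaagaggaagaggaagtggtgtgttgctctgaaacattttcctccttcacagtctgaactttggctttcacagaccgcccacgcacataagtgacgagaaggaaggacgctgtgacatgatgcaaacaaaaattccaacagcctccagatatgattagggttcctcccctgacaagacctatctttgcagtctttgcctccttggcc
Bcl2a1d: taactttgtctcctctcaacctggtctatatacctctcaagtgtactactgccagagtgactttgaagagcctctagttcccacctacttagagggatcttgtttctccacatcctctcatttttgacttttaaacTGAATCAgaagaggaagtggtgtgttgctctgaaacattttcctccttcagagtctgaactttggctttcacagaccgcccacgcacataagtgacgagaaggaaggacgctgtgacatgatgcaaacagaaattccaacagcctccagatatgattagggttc
Over the 250 bases that align, 247 were identical, and Bcl2a1b held 6 further bases in a gap of the alignment. Both hold the match TGAATCA, which begins at position -164 from the start of Bcl2a1b and -114 from that of Bcl2a1d. Its middle A counts as a match only because any base was allowed there, and binding was not tested. Read on either strand, TGANTCA occurs in 7.81% of 32851 start regions of this length. Neither sequence holds the NF-kB consensus motif, found in 8.46% of them. Among the start regions of the other 8 members, the single match to either motif was an NF-kB consensus match at 1 of the 3 annotated starts of Bcl2l1. No match says only that these letters are not in these windows.

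The transcripts of the copies are also alike. The Bcl2a1d transcript (863 bases, GENCODE M21) matched that of Bcl2a1b (817 bases) at 810 of 817 aligned bases, 99.14%. Of all 50-base windows of the Bcl2a1d transcript, 79.48% also occur in Bcl2a1b or in the third expressed copy, Bcl2a1a. For Bcl2a1b the share was 57.55%. The sources used here do not say how reads that match several genes were counted, so the values of these copies are uncertain as single genes. The exons of Bcl2a1b also share 401 bases with Gm29094 on the same strand.

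Among the 10 members the levels spanned a wide range. Per kilobase of exon (rlog minus the log2 of the summed exon length in kb), Bax (9.95) and Bcl2a1d (9.82) led in cKO cells at 0 h, Mcl1 (9.01) overlapped with Bcl2l1 (8.61), and Bid (7.57) with Bad (7.57). In WT cells at 0 h Bax had a mean of 9.84, next to Bcl2a1d at 9.74, and the values of the pair overlapped. Bcl2l1 (9.29), Mcl1 (8.86) and Bcl2a1b (7.96) followed in WT cells, then Bad (7.69) and Bid (7.56), which overlapped, Bcl2l11 (5.11), Bak1 (4.07) and Bcl2 (2.15). Bcl2a1d led after LPS, at 11.46 in cKO cells and 12.03 in WT cells on this scale, with Bax next at 9.95 in cKO cells and 9.76 in WT cells. In the WT samples Bax then overlapped with Bcl2a1b (9.75), and Bcl2a1b with Bcl2l1 (9.72). Bcl2 stood last in all 4 groups. Exon length counts every annotated exon, so genes that use few of theirs are set too low.

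**Figure D1:**
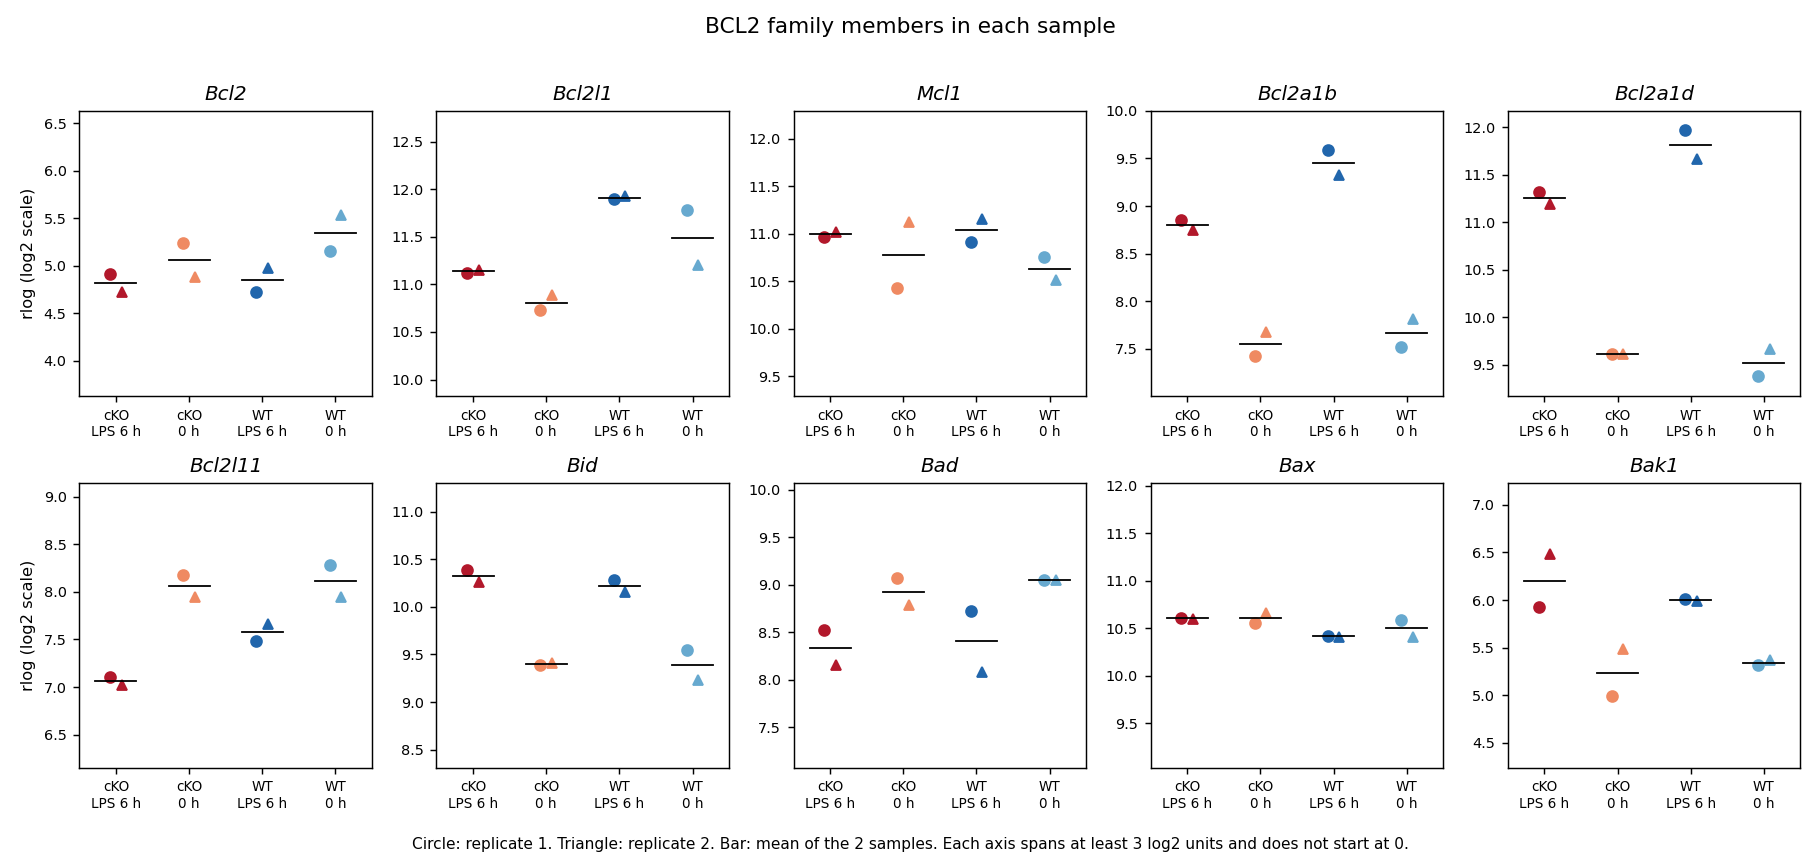
Expression of the 10 members in every sample. Each panel is a gene, the vertical axis is rlog on a log2 scale, and the 4 columns are the groups, with a circle for replicate 1, a triangle for replicate 2 and a bar for their mean. Bcl2a1b, Bcl2a1d, Bid and Bak1 are higher in every LPS sample than in every 0 h sample, Bcl2l11 and Bad are lower, and Bax lies between 10.41 and 10.66 throughout.

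The LPS comparison asks how each genotype responds to 6 h of LPS. In cKO cells 4 members rose (Bcl2a1d, Bcl2a1b, Bak1 and Bid) and 1 fell (Bcl2l11); in WT cells 3 rose (Bcl2a1d, Bcl2a1b and Bid) and 2 fell (Bad and Bcl2l11). Over all tested genes the test called 37% in cKO cells (19.6% higher and 17.5% lower) and 42.2% in WT cells (22.5% higher and 19.7% lower), so 5 of 10 members in each genotype is close to the share of all genes. The median difference of the members was 0.27 in cKO cells and 0.41 in WT cells, against -0.02 and -0.01 for all genes. For the 1274 genes with a mean rlog of 10 or more, among them Bcl2l1, Mcl1, Bcl2a1d and Bax, the median was 0.19 and 0.31. The LPS and 0 h samples did not overlap for 7 members in cKO cells and for 9 in WT cells, where 72.5% and 71.3% of all genes did not.

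Of the pro-survival genes, the A1 copies rose most. Bcl2a1d read 11.31 and 11.19 in cKO cells after LPS against 9.61 and 9.61 in cKO cells at 0 h, and 11.97 and 11.66 in WT cells after LPS against 9.38 and 9.67 in WT cells at 0 h. All 4 LPS samples stood above all 4 samples at 0 h. The rise was 1.64 in cKO cells (SE 0.15, adjusted p = 0.000106 with limma) and 2.29 in WT cells (SE 0.15, adjusted p = 1.91e-05). Bcl2a1b read 8.85 and 8.75 in cKO cells after LPS against 7.42 and 7.68 in cKO cells at 0 h, and 9.59 and 9.32 in WT cells after LPS against 7.52 and 7.81 in WT cells at 0 h. Its rise was 1.25 in cKO cells (SE 0.16, adjusted p = 0.000609 with limma) and 1.79 in WT cells (SE 0.16, adjusted p = 7.27e-05). In both genotypes the groups were apart, and the order of the 2 copies in size of rise was the same. The summed level of the 8 neutrophil markers, a cell type that also expresses A1, was 8.54 and 8.77 in cKO cells after LPS against 7.95 and 8.04 in cKO cells at 0 h, and 7.59 and 8.14 in WT cells after LPS against 6.84 and 7.43 in WT cells at 0 h (log2 of summed values). It came mainly from S100a8 and Camp, and the defining marker Ly6g was at the floor of the table (mean -2.02). Its part in the A1 values was not tested, and in bulk RNA fewer cells of a type and less RNA per cell cannot be told apart.

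The other pro-survival genes were not called. Bcl2l1 read 11.12 and 11.15 in cKO cells after LPS against 10.73 and 10.89 in cKO cells at 0 h, and 11.90 and 11.93 in WT cells after LPS against 11.78 and 11.20 in WT cells at 0 h. LPS samples were above those at 0 h in each genotype, by 0.33 in cKO cells (SE 0.18, adjusted p = 0.193 with limma) and by 0.42 in WT cells (SE 0.18, adjusted p = 0.0968). Without WT 0 h replicate 1, the higher of the 2, the WT difference was 0.71 (adjusted p = 0.00933 with limma), and under quantile normalization the differences were -0.06 in cKO cells and -0.21 in WT cells. Mcl1, a short-lived protein that myeloid cells depend on, read 10.97 and 11.02 in cKO cells after LPS against 10.43 and 11.12 in cKO cells at 0 h, and 10.92 and 11.16 in WT cells after LPS against 10.75 and 10.52 in WT cells at 0 h. The samples at 0 h in cKO cells spread on both sides of those after LPS, and their gap of 0.69 exceeded the same gap of 94.3% of genes. The Mcl1 difference was 0.22 in cKO cells (SE 0.22, adjusted p = 0.464 with limma) and 0.40 in WT cells (SE 0.22, adjusted p = 0.167), and it was 0.56 in cKO cells without cKO 0 h replicate 2 (adjusted p = 0.048). Under quantile normalization it was -0.18 in cKO cells and -0.11 in WT cells. Bcl2 itself read 4.91 and 4.73 in cKO cells after LPS against 5.23 and 4.88 in cKO cells at 0 h, and 4.72 and 4.98 in WT cells after LPS against 5.15 and 5.53 in WT cells at 0 h. The differences of -0.24 in cKO cells (SE 0.22, adjusted p = 0.431 with limma) and -0.49 in WT cells (SE 0.22, adjusted p = 0.105) did not pass.

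The BH3-only genes went in different directions. Bcl2l11, the gene of Bim, fell: it read 7.11 and 7.02 in cKO cells after LPS against 8.18 and 7.95 in cKO cells at 0 h, and 7.49 and 7.67 in WT cells after LPS against 8.28 and 7.94 in WT cells at 0 h. The difference was -0.999 in cKO cells (SE 0.16, adjusted p = 0.00199 with limma) and -0.54 in WT cells (SE 0.16, adjusted p = 0.0292). The WT call was lost without WT 0 h replicate 1 (-0.37, adjusted p = 0.177 with limma), without WT LPS replicate 1 (-0.45, adjusted p = 0.122) with only the 4 WT samples (adjusted p = 0.0597) and with no filter on low values (adjusted p = 0.0724). Bid, the protein that caspase-8 cuts to link death receptors to mitochondria, rose: it read 10.39 and 10.26 in cKO cells after LPS against 9.39 and 9.41 in cKO cells at 0 h, and 10.28 and 10.16 in WT cells after LPS against 9.55 and 9.23 in WT cells at 0 h. Its rise was 0.92 in cKO cells (SE 0.14, adjusted p = 0.00123 with limma) and 0.83 in WT cells (SE 0.14, adjusted p = 0.00168). The exons of Bid share 628 bases with those of Bcl2l13 on the other strand, whose difference was 0.13 in cKO cells and -0.07 in WT cells.

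Bad, a BH3-only protein held inactive by survival kinases, read 8.52 and 8.16 in cKO cells after LPS against 9.07 and 8.79 in cKO cells at 0 h, and 8.72 and 8.08 in WT cells after LPS against 9.05 and 9.05 in WT cells at 0 h. The LPS samples were lower than those at 0 h in each genotype. The difference was -0.59 in cKO cells (SE 0.22, adjusted p = 0.0679 with limma), which was not called, and -0.65 in WT cells (SE 0.22, adjusted p = 0.0451), which was. In cKO cells it was called in 6 of 17 alternative settings, among them the replicate block by number (adjusted p = 0.0215 with limma) and by animal label (adjusted p = 0.0254). The WT call had the highest adjusted p of the 5 and held in 8 of 17 alternative settings. It was lost with no variance trend (adjusted p = 0.0603 with limma) and with only the 4 WT samples (adjusted p = 0.0654). The difference was -0.32 without WT LPS replicate 2 (adjusted p = 0.241 with limma), and the call was also lost without WT 0 h replicate 1 (adjusted p = 0.136), without WT 0 h replicate 2 (adjusted p = 0.13), without any of the 4 cKO libraries except cKO 0 h replicate 2 (adjusted p up to 0.0551) and with no filter (adjusted p = 0.159). The exons of Bad share 524 bases with Gpr137 on the other strand.

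Of the pore formers, Bak1 was higher after LPS and Bax was not called. Bak1 read 5.93 and 6.48 in cKO cells after LPS against 4.99 and 5.48 in cKO cells at 0 h, and 6.02 and 5.99 in WT cells after LPS against 5.32 and 5.36 in WT cells at 0 h. It rose by 0.97 in cKO cells (SE 0.24, adjusted p = 0.0134 with limma), and the difference of 0.66 in WT cells (SE 0.24, adjusted p = 0.0533) just missed the threshold, although its replicates lay closer together there. The cKO call was lost without cKO LPS replicate 2 (0.69, adjusted p = 0.101 with limma), without cKO 0 h replicate 1 (0.72, adjusted p = 0.0847) and when every gene was kept (adjusted p = 0.0543). The WT difference was called in 10 of 17 alternative settings. Bax read 10.61 and 10.60 in cKO cells after LPS against 10.55 and 10.66 in cKO cells at 0 h, and 10.42 and 10.41 in WT cells after LPS against 10.58 and 10.41 in WT cells at 0 h. The 95% interval of its LPS difference ran from -0.26 to 0.27 in cKO cells and from -0.35 to 0.18 in WT cells. Under quantile normalization Bax was lower by -0.38 in cKO cells (adjusted p = 0.0235 with limma) and -0.53 in WT cells (adjusted p = 0.00475); that scaling moved the median of the 1274 most abundant genes (a mean rlog of 10 or more) to -0.20 and -0.24, against 0.19 and 0.31 as deposited.

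**Figure D2:**
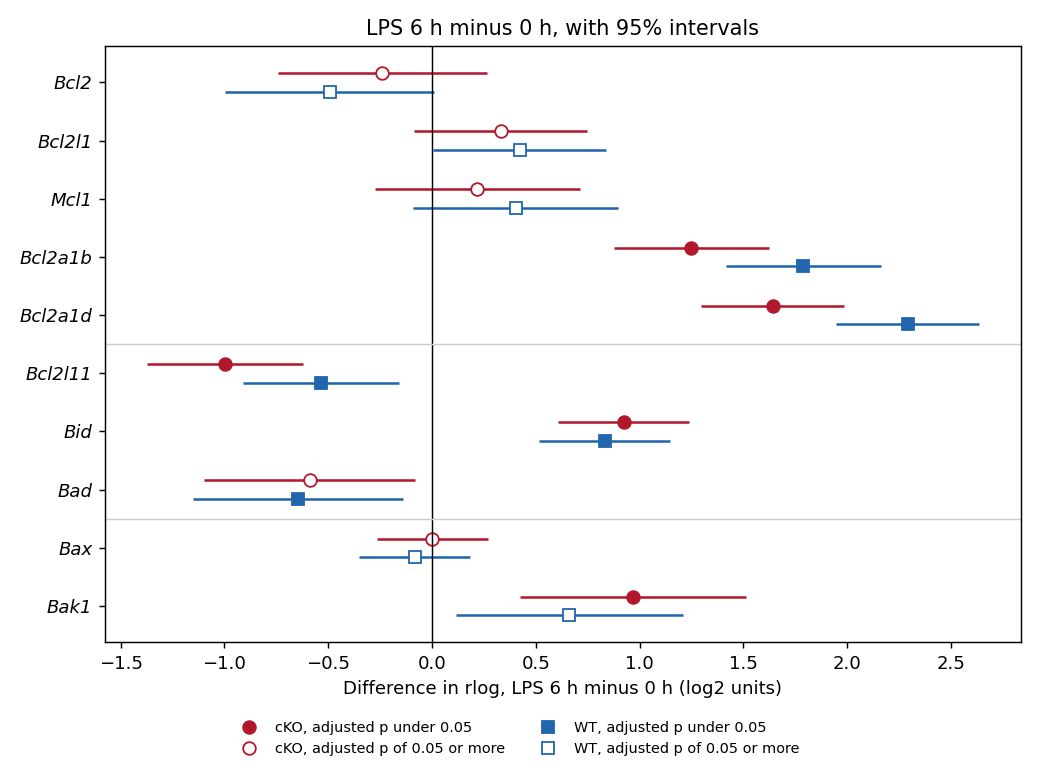
Change of each member under LPS in cKO (circles) and WT (squares) macrophages, as the difference in rlog between 6 h of LPS and 0 h, with unadjusted 95% intervals from limma's model. Filled symbols passed an adjusted p of 0.05. The A1 copies lie farthest right, at 1.25 to 2.29, Bcl2l11 lies left of 0 in both genotypes, and the intervals of Bax include 0.

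The authors' deposited table called the same 5 members in cKO cells and 3 of the 5 in WT cells, leaving out Bcl2l11 (-0.66, adjusted p = 0.13) and Bad (-0.72, adjusted p = 0.0813). In the authors' deposited table the change of Bcl2a1d was 1.81 in cKO cells and 2.48 in WT cells, that of Bcl2a1b 1.41 and 1.97, that of Bid 1.02 and 0.87, and that of Bak1 1.28 and 0.84, with Bak1 not called in WT cells (adjusted p = 0.232).

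The genes whose 8 values, each less the gene's own mean, lay nearest to Bcl2a1d were Ccdc25, Tmcc3 and Appl1, with a root mean square difference of 0.111, 0.112 and 0.128 log2 units over the 8 samples. Nearest to Bad, the member with the largest called fall in WT cells, were Emb (0.0825), Ugt1a7c (0.0871) and Gnpda2 (0.0912).

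The genotype comparison asks what loss of PTIP changes in resting and in stimulated macrophages. No member was called at either time with limma, where 0.251% of all genes were called at 0 h (0.052% higher and 0.199% lower) and 3.97% after LPS (1.51% higher and 2.46% lower). At an unadjusted p under 0.05 there was 1 member at 0 h, Bcl2l1, and there were 4 after LPS, Bcl2l1, Bcl2a1b, Bcl2a1d and Bcl2l11, all lower in cKO cells, where 10.9% and 21.5% of all genes reached it. The groups did not overlap for 1 member at 0 h (41.2% of all genes) and for 5 after LPS (53% of all genes), the fifth being Bax. The median difference of the members was -0.08 at 0 h and -0.05 after LPS, against -0.01 and -0.03 for all genes.

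Bcl2l1 stood nearest to the threshold. All 4 cKO values, 10.73 to 11.15 over both times, lay below all 4 WT values, 11.20 to 11.93. The difference was -0.69 at 0 h (SE 0.18, adjusted p = 0.235 with limma, 95% interval -1.10 to -0.27), and it ranged from -0.98 without WT 0 h replicate 2 to -0.39 without WT 0 h replicate 1. After LPS it was -0.78 (SE 0.18, adjusted p = 0.0555 with limma, 95% interval -1.20 to -0.36). That value passed in 5 of 16 alternative settings, among them centring on sample medians (adjusted p = 0.0461), the 4 LPS samples alone (adjusted p = 0.0227) and leaving out WT 0 h replicate 1 (adjusted p = 0.0221), and its adjusted p was 0.217 without cKO LPS replicate 1 and 0.259 without cKO LPS replicate 2. In the authors' deposited table Bcl2l1 was the 1 member called lower in cKO cells after LPS, with a log2 fold change of -0.79 and an adjusted p of 0.00364; at 0 h that table gave -0.77 (adjusted p = 0.121).

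The A1 copies did not stand apart by genotype at rest. At 0 h the cKO minus WT difference was 0.09 for Bcl2a1d (95% interval -0.26 to 0.43) and -0.12 for Bcl2a1b (-0.49 to 0.26), and the values overlapped. After LPS both cKO samples were below both WT samples for each copy. There the difference was -0.56 for Bcl2a1d (SE 0.15, adjusted p = 0.0759 with limma) and -0.66 for Bcl2a1b (SE 0.16, adjusted p = 0.0634), and neither passed in any of 16 alternative settings. The authors' deposited table gave -0.56 (adjusted p = 0.121) and -0.68 (adjusted p = 0.0857) for the same copies. Bcl2l11 followed the same course, with -0.05 at 0 h and -0.51 after LPS (SE 0.16, adjusted p = 0.115 with limma), where its cKO values of 7.11 and 7.02 lay below the WT values of 7.49 and 7.67.

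For the other members the intervals of the genotype difference included 0 at both times. After LPS they ran from -0.07 to 0.46 for Bax, from -0.34 to 0.75 for Bak1, from -0.21 to 0.42 for Bid, from -0.57 to 0.44 for Bad, from -0.53 to 0.45 for Mcl1 and from -0.54 to 0.47 for Bcl2. At 0 h they ran from -0.16 to 0.37 for Bax, from -0.65 to 0.44 for Bak1, from -0.30 to 0.33 for Bid, from -0.63 to 0.39 for Bad, from -0.35 to 0.64 for Mcl1 and from -0.79 to 0.22 for Bcl2. The summed level of the macrophage markers, most of it Lyz2, was 18.42 to 18.73 over the 4 cKO samples and 19.24 to 19.53 over the 4 WT samples. The median cKO minus WT difference of the 8 markers was -0.50 at 0 h and -0.52 after LPS. With limma 2 of the 8 were called lower in cKO cells after LPS, against 2.46% of all genes, and 0 at 0 h, against 0.199%. Cd68 alone had a higher mean in cKO cells, 14.75 against 14.51 at 0 h and 14.75 against 14.58 after LPS. The part of these markers in the genotype differences was not tested.

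**Figure D3:**
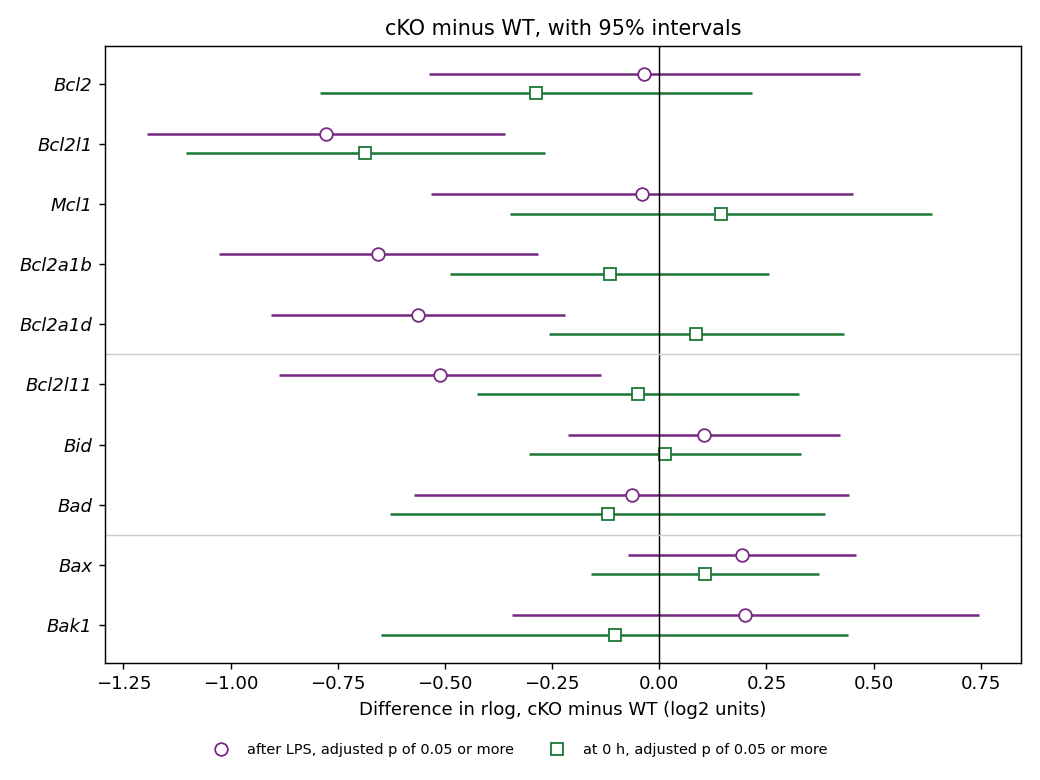
Difference between cKO and WT macrophages for each member, after LPS (circles) and at 0 h (squares), as cKO minus WT in rlog with unadjusted 95% intervals from limma's model. No symbol is filled, since no member passed an adjusted p of 0.05. Bcl2l1 lies left of 0 at both times (-0.78 and -0.69). The intervals of Bcl2a1b, Bcl2a1d and Bcl2l11 lie left of 0 after LPS and include 0 at 0 h.

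Whether the LPS change itself differed by genotype was tested by the interaction. With limma 0 of the 10 members passed, as did 0 of all genes (0%), while 2 members and 751 genes (6.51%) had an unadjusted p under 0.05. The members were Bcl2a1d, with an LPS change of 1.64 in cKO cells and 2.29 in WT cells, a difference of -0.65 (SE 0.21, adjusted p = 0.699 with limma), and Bcl2a1b, with 1.25 in cKO cells and 1.79 in WT cells, a difference of -0.54 (SE 0.23, adjusted p = 0.761). The third A1 copy, Bcl2a1a, rose by nearly the same amount in both, 1.79 in cKO cells and 1.86 in WT cells. For Bcl2l11 the changes of -0.999 in cKO cells and -0.54 in WT cells differed by -0.46 (SE 0.23, adjusted p = 0.764 with limma). Bak1 was called in cKO cells and not in WT cells and Bad in WT cells and not in cKO cells, but their interaction was 0.31 (SE 0.34) for Bak1 and 0.06 (SE 0.31) for Bad, so a genotype difference in their response was not shown.

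The rest of the family was described from a list of 14 further genes, of which 7 passed the filter. Bcl2l10 was listed at 0 in every sample, and the means of Bcl2a1c, Hrk, Bik, Bcl2l15, Bcl2l14 and Bok ran from -2.02 to 1.66. In cKO cells 1 of the 7 rose and 3 fell under LPS, and in WT cells 2 rose and 2 fell, where 37% of all genes were called in cKO cells and 42.2% in WT cells. Bcl2a1a, the third A1 copy, rose by 1.79 in cKO cells and 1.86 in WT cells. Its values were 10.73 and 10.89 in cKO cells after LPS against 8.85 and 9.18 in cKO cells at 0 h, and 11.33 and 11.02 in WT cells after LPS against 9.18 and 9.45 in WT cells at 0 h. Bmf, a BH3-only gene, fell by 1.57 in both genotypes, to 3.08 and 3.74 in cKO cells after LPS against 5.07 and 4.89 in cKO cells at 0 h, and to 3.70 and 3.25 in WT cells after LPS against 5.25 and 4.83 in WT cells at 0 h. Bcl2l12 fell by 1.31 in cKO cells and by 1.01 in WT cells, and the pro-survival gene Bcl2l2, which encodes Bcl-w, rose by 0.75 in WT cells and differed by 0.44 in cKO cells (adjusted p = 0.0949 with limma). Without WT 0 h replicate 1 the WT calls of Bcl2l12 (adjusted p = 0.0583 with limma) and Bcl2l2 (adjusted p = 0.0748) were lost, as was that of Bcl2l2 without WT LPS replicate 1 (adjusted p = 0.0579).

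Pmaip1, the gene of the BH3-only protein Noxa that neutralises Mcl-1 and A1, was the 1 family gene called by genotype. It read 7.80 and 7.88 in cKO cells after LPS against 9.23 and 9.15 in WT cells after LPS, and 8.24 and 8.79 in cKO cells at 0 h against 9.03 and 9.17 in WT cells at 0 h. All cKO values were below all WT values. It was lower by -1.35 after LPS (SE 0.18, adjusted p = 0.0156 with limma), while the -0.59 at 0 h was not called (SE 0.18, adjusted p = 0.284). Under LPS it fell by 0.67 in cKO cells (adjusted p = 0.0183 with limma) and differed by 0.09 in WT cells (adjusted p = 0.712), but the interaction of -0.77 (SE 0.25) had an adjusted p of 0.699. The authors' deposited table gave -1.47 for cKO against WT after LPS (adjusted p = 2.14e-06). Bbc3, the gene of Puma, read 5.32 and 5.41 in cKO cells after LPS against 4.86 and 4.44 in WT cells after LPS, a difference of 0.71 that was not called (SE 0.20, adjusted p = 0.0852 with limma). The genotype call of Pmaip1 after LPS, like that of Paxip1, was lost when 1 LPS library was left out, except WT LPS replicate 2: leaving out WT LPS replicate 1 gave an adjusted p of 0.0724, cKO LPS replicate 1 one of 0.102 and cKO LPS replicate 2 one of 0.156. The fit without either of those cKO libraries called 0 genes of the whole table in that comparison. With no filter on low values the adjusted p of Pmaip1 was 0.0505. Its LPS call in cKO cells was lost without cKO 0 h replicate 2 (-0.40, adjusted p = 0.0977 with limma), without cKO LPS replicate 1 (adjusted p = 0.0936), without cKO LPS replicate 2 (adjusted p = 0.0721) and when every gene was kept (adjusted p = 0.0771).

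**Figure D4:**
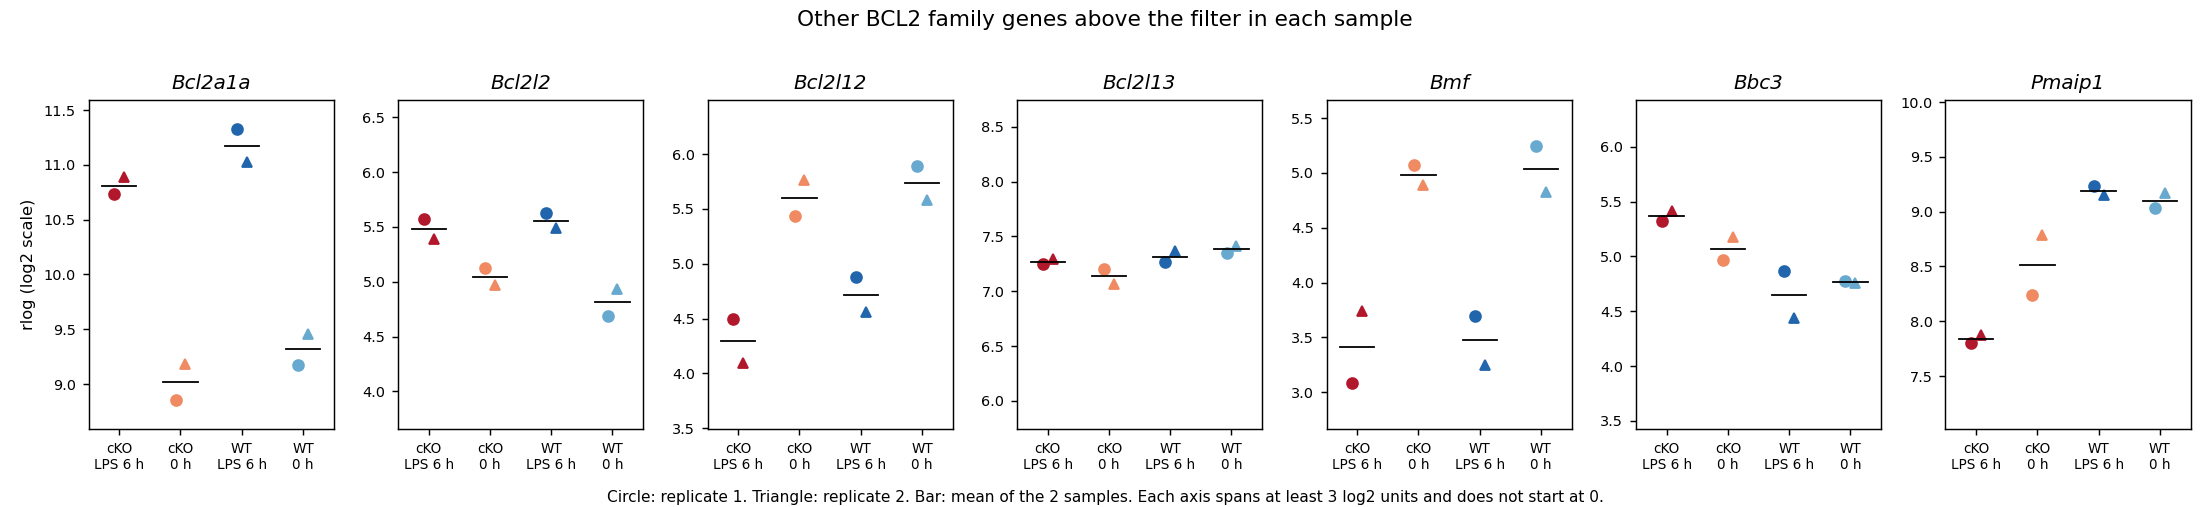
Expression of the 7 other BCL2 family genes that passed the filter, in every sample, as rlog on a log2 scale, with a circle for replicate 1, a triangle for replicate 2 and a bar for the mean. Pmaip1 is lower in all cKO samples than in all WT samples, and Bcl2a1a and Bmf separate LPS from 0 h in opposite directions.

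Downstream of the mitochondria, 5 of 11 tested apoptosome and caspase genes rose and 2 fell in each genotype, against 37% of all genes called in cKO cells and 42.2% in WT cells. Casp6 fell by 1.38 in cKO cells and 1.10 in WT cells, and Aifm1, which encodes a mitochondrial flavoprotein, by 1.08 and 1.01. Of 8 tested inhibitor of apoptosis genes, 3 rose and 1 fell in cKO cells, and 5 rose and 1 fell in WT cells. Xiap, which blocks caspases directly, rose by 0.98 in cKO cells and 1.13 in WT cells, Birc3 by 1.03 and 0.86, and Birc2 by 0.76 and 1.13. Birc5, also a mitotic gene, fell by 1.32 in cKO cells and 1.28 in WT cells.

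Of 9 tested death receptor pathway genes 5 rose and 0 fell in each genotype. Of all genes 19.6% rose and 17.5% fell in cKO cells, and 22.5% rose and 19.7% fell in WT cells. The median of the list was 0.85 in both, against -0.02 in cKO cells and -0.01 in WT cells for all genes. The ligand gene Tnfsf10 (TRAIL) rose by 3.71 in cKO cells and 4.23 in WT cells. Cflar, which encodes the caspase-8 inhibitor cFLIP, rose by 2.60 in cKO cells and 2.62 in WT cells, and Mlkl, the effector of necroptosis, by 2.37 and 2.82. Of 20 upstream regulators 4 rose and 2 fell in cKO cells, and 5 rose and 3 fell in WT cells, no larger a share than the 37% and 42.2% of all genes. Foxo3, a transcription factor known to activate Bcl2l11, fell by 1.65 in cKO cells (adjusted p = 0.014 with limma) and changed by -2.26 in WT cells (adjusted p = 0.00266), and Pim2, a kinase that phosphorylates Bad, by 2.24 and 2.36. Akt2, a survival kinase gene, rose by 1.06 in cKO cells and 1.30 in WT cells, and Usp9x, a deubiquitinase of Mcl-1, by 0.80 and 0.92. The cKO calls of Foxo3 and Usp9x were each lost without cKO 0 h replicate 2 (adjusted p = 0.0784 and 0.0678 with limma) and without cKO LPS replicate 1 (adjusted p = 0.0811 and 0.078), and that of Foxo3 also without cKO LPS replicate 2 (adjusted p = 0.0503) and when every gene was kept (adjusted p = 0.0928).

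Between genotypes, 0 genes of these 4 lists were called at 0 h with limma, and 6 of their 48 tested genes had an unadjusted p under 0.05, against 10.9% of all genes. After LPS 2 of the 48 were called, against 3.97% of all genes. Both were upstream regulators that were higher in cKO cells, and no gene of the other lists was called. Both are survival kinase genes, but the other Akt and Pim genes of the list had lower means in cKO than in WT cells after LPS. These were 8.78 against 9.07 for Akt2, 9.21 against 9.61 for Pim1 and 5.88 against 6.25 for Pim2. Pim3 read 9.90 and 10.02 in cKO cells and 8.35 and 8.82 in WT cells after LPS, a difference of 1.37 (SE 0.25, adjusted p = 0.0268 with limma), and Akt1 read 8.17 and 8.10 in cKO cells and 7.53 and 7.51 in WT cells, a difference of 0.61 (SE 0.12, adjusted p = 0.0328). The authors' deposited table called Pim3 (1.56, adjusted p = 4.9e-07) and did not call Akt1 (0.76, adjusted p = 0.128). With no filter the limma call of Pim3 was lost (adjusted p = 0.127). That of Akt1 was lost with no variance trend (adjusted p = 0.0521) and with the 4 LPS samples alone (adjusted p = 0.0628). Without WT LPS replicate 1 both calls were lost (adjusted p = 0.124 for Pim3 and 0.111 for Akt1 with limma), as they were without either cKO LPS library, and without WT LPS replicate 2 that of Akt1 was lost too (adjusted p = 0.0743).

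**Figure D5:**
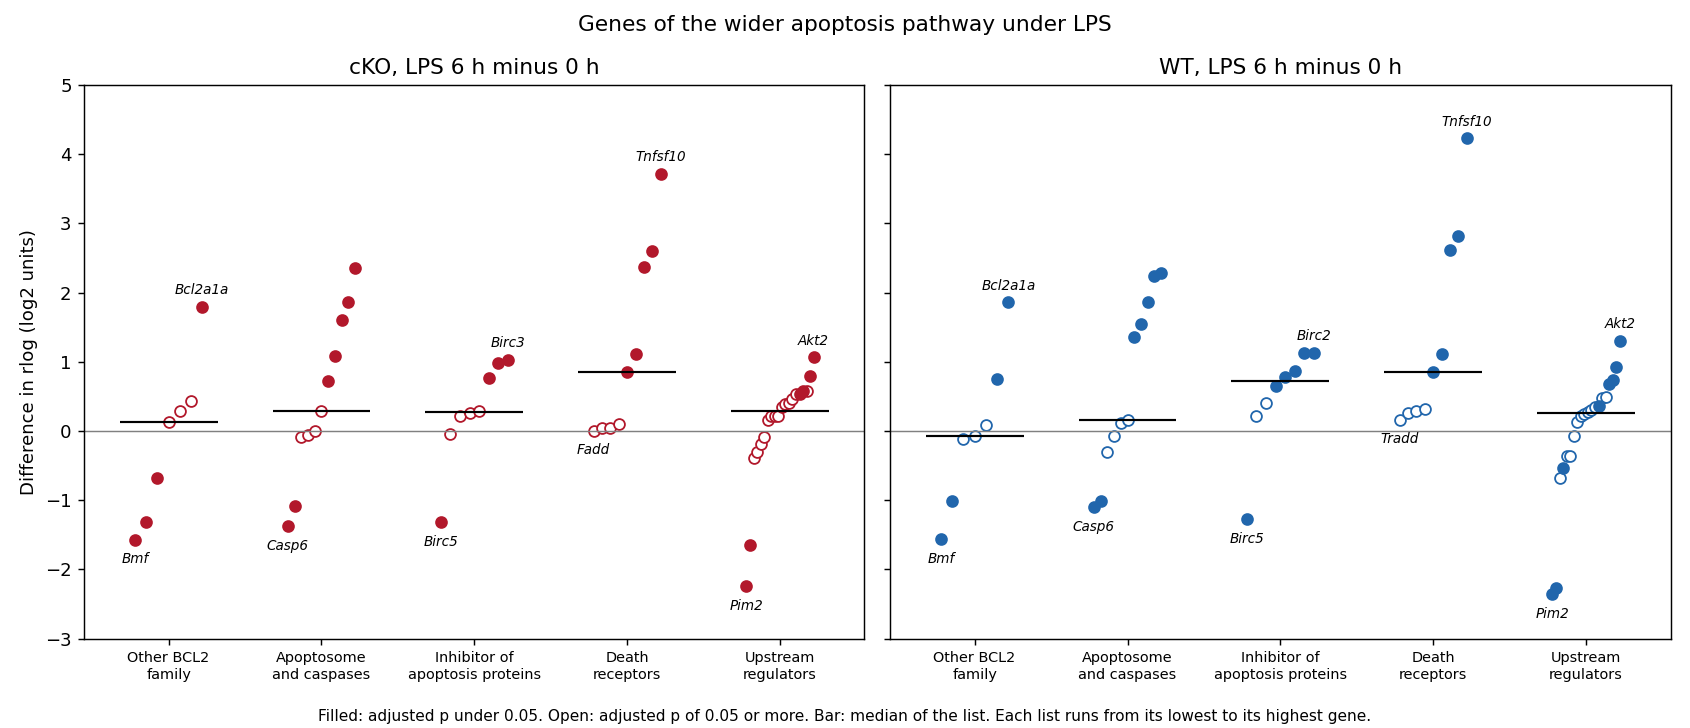
LPS change of every tested gene in 5 lists of the apoptosis pathway, in cKO cells (left) and WT cells (right), as the difference in rlog between 6 h of LPS and 0 h in log2 units. Each list is sorted by its change, filled points passed an adjusted p of 0.05, bars are list medians, and the lowest and highest gene is named in every list but the apoptosome and caspase one, where the lowest is. The death receptor list has no filled point below 0. Its median is 0.85 in both genotypes, against -0.02 in cKO cells and -0.01 in WT cells for all genes.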

How the data were processed

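RNA of 8 samples was sequenced as mRNA libraries made with oligo dT selection and random priming, per the labels' protocols. CASAVA, HISAT2 2.1.0, featureCounts, DESeq2 and the build GRCm38 are named in the submitters' processing notes; the sources used here state neither the strand setting nor how reads with several matches were counted. The authors deposited a table of rlog values on a log2 scale per gene and sample, with fold changes (log2) and raw and adjusted p-values of 4 comparisons, per the file headers. No counts were used, so depth and counting error are unknown.

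The 11543 of 55226 genes whose mean rlog reached 3 entered 1 limma model (limma 3.58.1, R 4.3.3) of the 4 group means over the 8 samples, with a variance trend, 4 residual and 4.4 prior degrees of freedom, and Benjamini-Hochberg adjustment over all genes at 0.05. The model was tested on simulated data. All 10 members were named, with up to 2 called rises and 2 called falls per comparison from each pathway list, except some genes of the apoptosome and caspase list, which are not reported here. The members and lists were chosen with earlier results of these data known. Alternatives varied the filter, scaling, variance model, replicate block and samples. Gene positions and transcripts are GENCODE M21. All 10 members matched the RefSeq table of start regions.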

Additional observations from a re-analysis of the deposited data

How the results depend on the processing

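Depth is unknown and each group held 2 samples, which limits every comparison; a fit without 1 library takes the spread of its lone partner from the other groups. Of the 10 members, 5 were called under LPS in cKO cells, where 37% of all genes were, and 5 in WT cells, where 42.2% were. Which members were called changed in each genotype when 1 library was left out. With no filter on low values 3 members were called in WT cells. Between genotypes after LPS 0 were called, 0 to 1 without 1 library, and 1 (Bcl2l1) with samples centred on their medians, with the replicate block by number and with only the 4 samples compared. At 0 h and for the interaction 0 members were called in every setting run. The causes were not tested. Bcl2a1b, Bcl2a1d and Bid in both genotypes and Bcl2l11 in cKO cells were called in 17 of 17 alternatives.

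Replicate numbers were not treated as pairs, since no label says what a number shares. The titles do carry the same name across treatment, such as WT1 at 0 h and WT1 after LPS. Deviations of same-numbered samples correlated over genes at 0.31 between the cKO groups and 0.22 between the WT groups. Across genotypes the correlations ran from -0.04 to 0.20. With the replicate block, by number or by animal label, 6 members were called under LPS in each genotype, with Bad added in cKO cells and Bak1 in WT cells. Without the block 37% of all genes were called under LPS in cKO cells and 42.2% in WT cells. The shares with the block are not given here, so the added members cannot be set against them. Over all genes, the block called 804 genes between genotypes after LPS, against 458 without it, and 72 at 0 h, against 29. After LPS 208 genes were called with no filter, 235 under quantile normalization, 301 with no variance trend, 14 without WT LPS replicate 1 and 0 without either cKO LPS library. At 0 h the counts were 114 with no filter, 9 with no variance trend and 0 with only the 4 samples compared. For the interaction 10 genes were called with no filter.

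Quantile normalization turned the sign of the LPS difference of Bcl2l1 (-0.0568), Mcl1 (-0.18), Bax (-0.38) and Paxip1 (-0.24) in cKO cells and of Bcl2l1 (-0.21), Mcl1 (-0.11) and Pmaip1 (-0.10) in WT cells. It also turned that of Mcl1 between genotypes after LPS (0.17) and the interactions of Bcl2l1 (0.15), Bcl2a1a (0.11) and Bmf (0.0254), and median centring turned Bax in cKO cells (-0.00318).

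Leaving out 1 library turned the sign of small uncalled differences, which then ranged as follows. Under LPS in cKO cells Mcl1 ran from -0.13 to 0.56 and Bax from -0.0517 to 0.0555, and in WT cells Bax from -0.17 to 0.0022 and Bbc3 from -0.32 to 0.10. Between genotypes after LPS the ranges were -0.39 to 0.26 for Bad, -0.0748 to 0.48 for Bak1, -0.16 to 0.0924 for Bcl2, -0.16 to 0.0793 for Mcl1, -0.10 to 0.00614 for Bcl2l13, -0.16 to 0.0186 for Bcl2l2 and -0.39 to 0.27 for Bmf. At 0 h they were -0.26 to 0.0181 for Bad, -0.35 to 0.14 for Bak1, -0.26 to 0.0277 for Bcl2a1b, -0.0589 to 0.23 for Bcl2a1d, -0.22 to 0.12 for Bcl2l11, -0.29 to 0.0323 for Bcl2l12, -0.15 to 0.18 for Bid, -0.26 to 0.15 for Bmf and -0.20 to 0.49 for Mcl1. For the interaction they were -0.26 to 0.38 for Bad, -0.00032 to 0.17 for Bax, -0.23 to 0.10 for Bcl2a1a, -0.38 to 0.20 for Bcl2l1, -0.0703 to 0.25 for Bid, -0.34 to 0.32 for Bmf and -0.53 to 0.16 for Mcl1.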
